A study of Mustela putorius furo with 8 samples.

Results

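The genes described are 42 genes of S phase and DNA replication, named in a fixed list and looked up by symbol in the count matrices. A row was found for 40 of them among the 27912 genes of the series, and NASP and SLBP had none. The measurements came from ferret pancreatic ductal epithelial (PDE) cultures, profiled by droplet single-cell RNA sequencing on day 2, 5, 7 and 9 at an air-liquid interface (ALI). WT cultures and cultures homozygous for a CFTR knockout (CFTR-KO, here CF) gave 1 library per genotype and day, so no value has a replicate error within a genotype and day, and no test between libraries was run. The ducts came from neonatal ferrets, the cells had been passaged serially before they were seeded on coated permeable inserts, and cells of several donors of a genotype were pooled. The knockout had been made by gene targeting and nuclear transfer, and CFTR encodes the chloride and bicarbonate channel lost in cystic fibrosis.

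Replication starts at origins that are licensed in G1, when CDC6 and its partners load the MCM helicase onto DNA, and fired in S phase, when CDC45 and the GINS complex switch that helicase on. Polymerases, the PCNA clamp and its loader then copy the strands, while ribonucleotide reductase and thymidylate synthase supply nucleotides, chaperones and methylation factors rebuild chromatin, and claspin and its partners watch the fork. Many of these genes are switched on together by E2F factors as cells leave G1, and their transcripts are therefore widely used to mark cycling cells. An epithelium that is seeded, becomes confluent and polarizes usually leaves the cell cycle as it differentiates.

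The 32945 retained cells carried between 34735952 and 114585136 UMIs per library, with median UMIs per cell from 14949 to 23427. CF day 7 stood apart in depth, with 411 of 1607 cells under 3000 UMIs. Duct epithelium markers were abundant in every library, with all 9 at 1 CPM or more (UMI counts scaled to 1000000 UMIs of the library) and a summed level of 7883 to 10364 CPM. INS, GCG, PTF1A and CDH5, which define endocrine, acinar and endothelial cells, were at 0 in all 8 libraries. The 6 immune genes summed to 5.87 to 25.1 CPM with PTPRC at 0.0198 CPM or less, and the 6 fibroblast genes to 1.53 to 28.0 CPM, highest at CF day 7 and day 9. Median mitochondrial UMIs per cell lay between 5.65% and 10.7%. CFTR was counted in the CF libraries too, at 2.50, 8.69, 11.1 and 11.4 CPM by day against 6.57, 16.9, 15.9 and 29.5 CPM in WT. The knockout animals are described as making no CFTR transcript, and these UMIs go against that. Whether the tags lie outside the targeted exon was not tested, so WT and CF stand for the libraries labelled so. Pairs of libraries shared 2 to 19 cell barcodes.

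The replication genes stood highest at day 2 and lowest at day 9 in both genotypes, and the difference over the days was larger in WT. Summed over the 40 genes, their level was 1322, 825, 596 and 440 CPM in WT on day 2, 5, 7 and 9 and 743, 571, 449 and 407 CPM in CF. WT day 9 was 3.00-fold below WT day 2 (95% interval 2.97 to 3.04), and CF day 9 was 1.83-fold below CF day 2 (1.80 to 1.86). Intervals for UMI sums and their ratios are exact and cover counting error only, not the variation between animals or cultures. CF stood 1.78-fold below WT at day 2, 1.45-fold at day 5, 1.33-fold at day 7 and 1.08-fold at day 9. With each cell weighted equally the differences at day 5 and day 7 were clearly smaller, as given with the processing. The direction at day 5 held against the whole WT library but not against each subset of its cells, as given with SOX2. In libraries summed over cells, fewer cells in S phase and less RNA of these genes per cell cannot be told apart. Cells are therefore counted one by one further on.

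**Figure D1:**
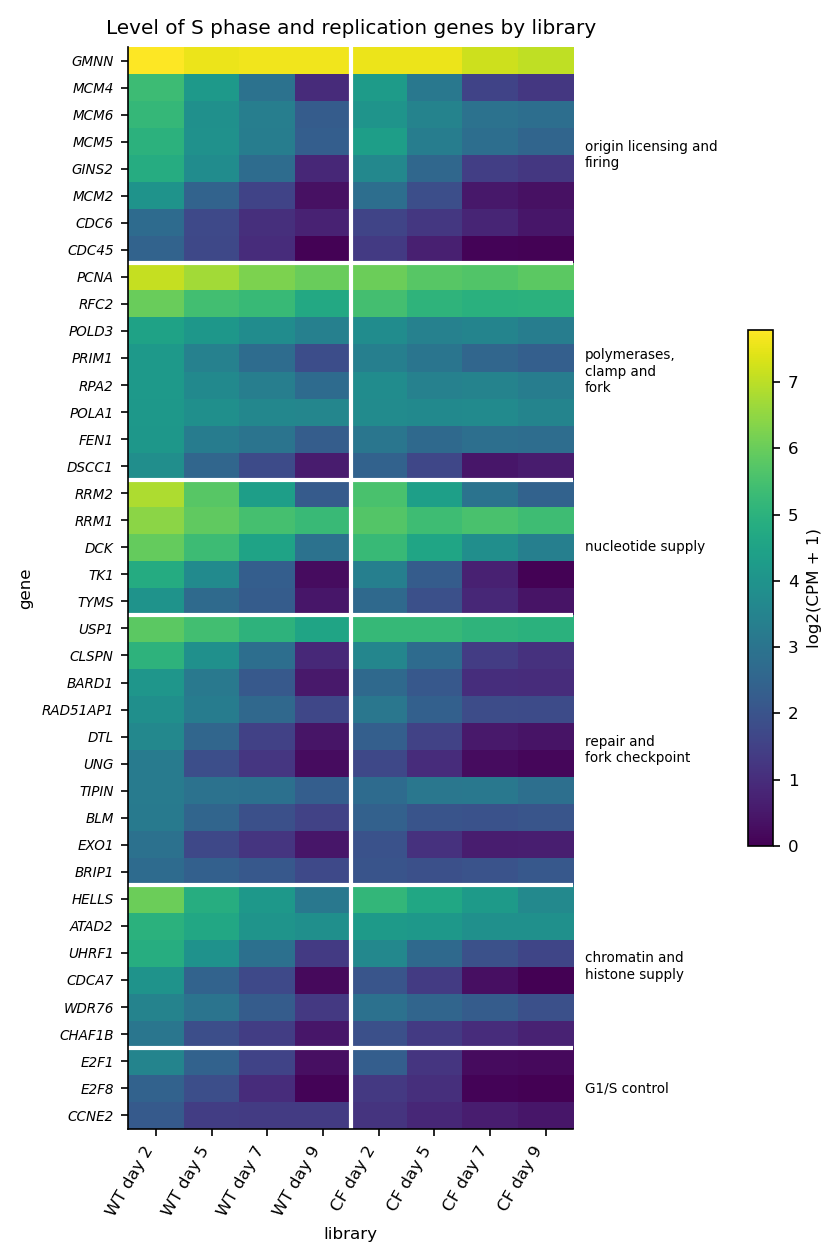
Each row is 1 of the 40 measured genes, grouped by role, each column is 1 library, and colour gives the level as log2(CPM + 1). The 4 WT columns darken from day 2 to day 9 for nearly every gene and the CF columns start darker, whereas the row of GMNN stays between 132 and 220 CPM throughout.

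GMNN departed most from that course in WT. All 40 members were highest at day 2 in WT and 38 were lowest at day 9, the others being GMNN and CCNE2, beside 26.7% and 33.3% of the 9427 genes with a mean of 5 CPM or more. In CF 37 were highest at day 2 and 32 lowest at day 9, beside 25.7% and 26.5% of these genes. GMNN encodes geminin, which blocks the loading of MCM helicases once S phase has begun, and its protein is destroyed as cells leave mitosis. Its level was 220, 189, 195 and 197 CPM in WT and 188, 188, 146 and 132 CPM in CF. In WT it was thus nearly flat after day 2, and in CF it was lower at the late days, 1.49-fold below WT at day 9 (1.45 to 1.53). With 121724 UMIs it carried more than any other gene of the list and made up 16.7% of the members' UMIs at WT day 2 but 44.8% at WT day 9, and 25.3% to 33.0% in CF. The summed level hence depended on it. Without GMNN the other 39 genes summed to 1101, 636, 401 and 243 CPM in WT and 554, 382, 303 and 274 CPM in CF. On that sum WT day 9 was 4.54-fold below day 2 and CF day 9 was 2.02-fold below. CF was 1.99-fold below WT at day 2, whereas at day 9 the order was turned and CF was higher by 0.18 on the log2 scale (interval 0.14 to 0.21).

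**Figure D2:**
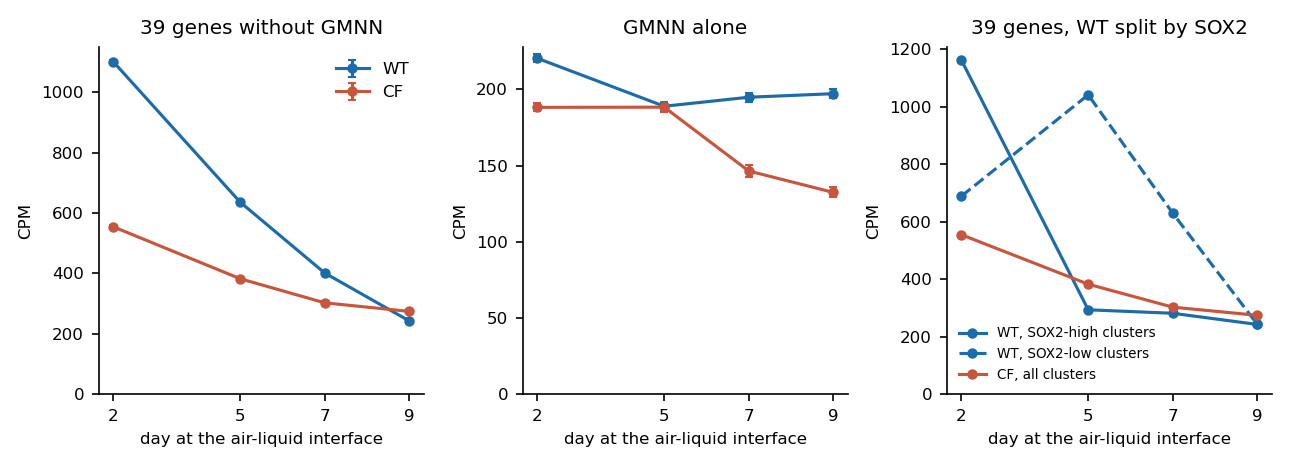
Summed level in CPM against the day at ALI for the 39 genes without GMNN (left), for GMNN alone (middle), and for the 39 genes with WT cells split by the SOX2 level of their cluster (right). Bars are 95% Poisson intervals in the left and middle panels, WT is blue and CF red. The WT sum goes from 1101 to 243 CPM and ends below the CF sum of 274 CPM at day 9. GMNN is still higher in WT at day 9, and the SOX2-low WT cells peak at day 5 with 1041 CPM.

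Among the genes that license and fire origins, MCM4, a subunit of the replicative helicase, stood at 39.3, 17.4, 6.61 and 0.932 CPM in WT and at 18.5, 7.68, 1.96 and 1.40 CPM in CF. MCM2, from the same ring, stood at 14.9, 4.62, 1.96 and 0.271 CPM in WT and at 6.11, 2.63, 0.403 and 0.280 CPM in CF. The GINS subunit GINS2 stood at 27.3, 12.8, 5.81 and 0.826 CPM in WT and at 11.4, 5.08, 1.73 and 1.38 CPM in CF. All of these were highest in the WT day 2 library and near or under 1 CPM at day 9 in both genotypes. MCM4 was 42.2-fold lower at day 9 than at day 2 in WT (33.8 to 53.4) and 13.2-fold lower in CF (10.4 to 17.0), and GINS2 33.1-fold and 8.29-fold. MCM5 and MCM6 had smaller differences, 7.81-fold and 9.29-fold in WT and 4.09-fold and 2.52-fold in CF. The licensing factor CDC6 was 8.50-fold lower in WT and 5.27-fold in CF. CDC45, which joins the active helicase, stood at 4.53 CPM at WT day 2 and 0.0354 CPM at WT day 9, and at 1.5 and 0.0400 CPM in CF, where the day 9 values rest on 3 and 2 UMIs.

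Among the genes of the fork, PCNA, the sliding clamp, stood at 136, 104, 74.9 and 63.1 CPM in WT and at 64.5, 53.7, 50.6 and 56.3 CPM in CF. RFC2, a subunit of the clamp loader, stood at 63.1, 41.8, 36.8 and 25.0 CPM in WT and at 42.8, 32.6, 29.6 and 30.2 CPM in CF. Both retained much of their day 2 level: PCNA was 2.15-fold lower at WT day 9 (2.09 to 2.22) and only 1.15-fold lower at CF day 9 (1.1 to 1.20). POLA1, the catalytic subunit of the polymerase that primes each strand, stood at 16.7, 13.6, 11.1 and 10.9 CPM in WT and at 12.5, 12.1, 12.1 and 10.5 CPM in CF, and next to GMNN had the smallest difference over the days in WT. DSCC1, of the loader that serves sister chromatid cohesion, differed far more over the days, with 13.4, 4.95, 2.41 and 0.519 CPM in WT and 4.45, 2.15, 0.374 and 0.50 CPM in CF. The polymerase delta subunit POLD3, the primase PRIM1, the single-strand binding protein RPA2 and the flap nuclease FEN1 were 2.28-, 6.67-, 3.03- and 4.16-fold lower at WT day 9 than at day 2 and 1.45-, 2.21-, 1.44- and 1.23-fold lower in CF.

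On log2(CPM + 1), which compresses low levels, the 2 largest WT differences between day 2 and day 9 were those of RRM2 and TK1. Both are genes of nucleotide supply. By plain ratio of CPM, RRM2 came behind MCM4, GINS2, CLSPN and several other members. RRM2, the S phase subunit of ribonucleotide reductase, stood at 112, 52.9, 19.6 and 3.76 CPM in WT and at 45.6, 20.1, 6.79 and 4.52 CPM in CF. Its partner RRM1, which is present through the cycle, stood at 86.1, 58.8, 44.1 and 38.2 CPM in WT and at 51.5, 40.1, 45.9 and 40.1 CPM in CF. Within this single enzyme RRM2 was 29.8-fold lower at WT day 9 (26.6 to 33.4) and RRM1 2.26-fold (2.17 to 2.35), with 10.1-fold and 1.29-fold in CF. The thymidine kinase TK1 stood at 26.8, 12.2, 4.07 and 0.189 CPM in WT and at 9.30, 3.78, 0.633 and 0.0400 CPM in CF, the last from 2 UMIs. TYMS, thymidylate synthase, stood at 14.9, 5.47, 3.77 and 0.401 CPM in WT and at 5.30, 2.70, 0.806 and 0.340 CPM in CF. DCK, a salvage kinase for deoxycytidine, stood at 61.2, 39.5, 21.7 and 6.71 CPM in WT and at 37.0, 23.1, 13.3 and 9.30 CPM in CF. WT was the higher genotype at day 2 and day 5 for all 5 genes, and at day 9 RRM2 and DCK were higher in CF beyond counting error.

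Of the genes of repair and fork checkpoint, CLSPN, which encodes claspin, stood at 32.2, 13.9, 6.09 and 0.873 CPM in WT and at 10.8, 5.57, 1.61 and 1.16 CPM in CF. USP1, the protease that removes ubiquitin from PCNA, stood at 56.0, 42, 31.8 and 22.4 CPM in WT and at 36.3, 36.2, 32.6 and 30.2 CPM in CF. The fork protector TIPIN stood at 8.4, 6.60, 6.32 and 3.99 CPM in WT and at 5.67, 7.43, 7.60 and 6.12 CPM in CF. Claspin was thus 36.8-fold lower at WT day 9 than at day 2, whereas TIPIN in CF showed no difference between these days beyond counting error (ratio interval for day 2 over day 9, 0.805 to 1.07). The helicase BRIP1 behaved likewise, with 5.55, 4.19, 3.42 and 2.28 CPM in WT and 3.09, 2.74, 3.02 and 3.38 CPM in CF. TIPIN and BRIP1 were the 2 members without a lower level at CF day 9 on the library totals, and under 2 other scalings both lay below their day 2 level. The other 6 genes of this role (BARD1, RAD51AP1, DTL, UNG, EXO1 and BLM) were 4.15-fold (BLM) to 42.1-fold (UNG) lower at WT day 9 and 1.36-fold to 22.2-fold lower at CF day 9.

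In the chromatin group HELLS, a remodeller needed to keep DNA methylation, stood at 64.7, 28.2, 16.8 and 7.7 CPM in WT and at 34.5, 23.8, 17.9 and 11.7 CPM in CF. Its partner CDCA7 stood at 15.1, 4.62, 2.31 and 0.142 CPM in WT and at 3.13, 1.55, 0.259 and 0.0200 CPM in CF, where 1 UMI was left. ATAD2, a bromodomain ATPase of replicating chromatin, stood at 30.5, 24.4, 15.4 and 13.7 CPM in WT and at 17.9, 16.7, 14 and 14 CPM in CF. CDCA7 had the largest CF to WT difference of all members at day 2, 4.83-fold lower in CF (4.29 to 5.46), while ATAD2 was 1.70-fold lower. UHRF1, CHAF1B and WDR76 were 18.5-, 19.4- and 7.02-fold lower at WT day 9 than at day 2 and 5.35-, 4.0- and 2.38-fold lower in CF. For G1/S control, E2F1 stood at 10.4, 4.47, 1.96 and 0.236 CPM in WT and at 4.0, 1.29, 0.173 and 0.140 CPM in CF. The cyclin CCNE2 stood at 3.61, 1.67, 1.55 and 1.57 CPM in WT and at 1.27, 0.826, 0.547 and 0.400 CPM in CF. E2F8, a repressor that E2F1 itself induces, was at 4.45 and 0.0590 CPM at WT day 2 and 9, and at CF day 9 it had no UMI, which is at least 23.9-fold below the 1.44 CPM of CF day 2 against a floor of 3 UMIs. Of the 40 genes, 10 overlap another gene of the annotation, and CCNE2, POLA1, TIPIN, POLD3, ATAD2, RRM1, HELLS, UHRF1, WDR76 and E2F8 are these. Whether reads of such neighbours entered their counts was not tested.

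By role, nucleotide supply summed to 301, 169, 93.2 and 49.2 CPM in WT and 149, 89.7, 67.4 and 54.2 CPM in CF. The repair group, at 166, 97.9, 63.6 and 35.0 CPM in WT and 82.3, 66.8, 52.5 and 48.5 CPM in CF, and the chromatin group, at 155, 81.6, 46.3 and 24.9 CPM and 76.1, 53.7, 39.9 and 31.3 CPM, had the same order of days. All of these were more than 4-fold lower at WT day 9 than at day 2. The fork group, at 301, 211, 160 and 121 CPM in WT and 166, 133, 124 and 125 CPM in CF, differed less. At day 9 CF stood above WT in each of these groups, and below it in the licensing group, where GMNN made up most of 208 CPM in WT and 147 CPM in CF, and in the G1/S group with 1.86 and 0.540 CPM. For the fork group the log2 difference of 0.049 was smaller than shifts of -0.086 and -0.073 under 2 other scalings. Against SOX2-high WT cells the fork group was lower in CF, at 125 against 129 CPM. Against SOX2-low WT cells the chromatin group was lower in CF, at 31.3 against 33.0 CPM. In both cases the counting intervals overlapped. The repair group was higher in CF against both WT subsets. The nucleotide group was higher in CF against SOX2-high cells. Against SOX2-low cells its intervals overlapped, at 52.2 to 56.3 CPM in CF and 48.9 to 54.5 CPM in WT.

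Counted gene by gene, all 40 members were highest at day 2 in WT, and 38 of them stood lower at each later day than at the day before. That held for 14.3% of the 9427 genes of the series with a mean of 5 CPM or more. In CF, 37 members were highest at day 2 and 27 stood lower at each step, beside 12.7% of all such genes. A difference was called when it reached 2-fold on log2(CPM + 1), and calls were counted over the 24 members with a mean of at least 5 CPM. WT day 9 was at least 2-fold below day 2 for 21 of the 24 members, where 5.24% of all genes were called, and the others were GMNN, POLA1 and TIPIN. Of the 21, TK1, RAD51AP1 and WDR76 reached the mean of 5 CPM only through WT day 2, where they were highest. Their calls against that library thus lean on the filter. CF day 9 was at least 2-fold below day 2 for 12 of the 24, beside 2.94% of all genes. The median log2 difference of the 24 was -2.20 in WT and -1.0 in CF, whereas the median over all genes was 0.10 and 0.14. Since all genes shift by these amounts under totals, differences among the members lie slightly further from 0 relative to the typical gene. Members near 1 CPM show too small a difference on this scale, and over all 40 measured members 35 in WT and 25 in CF were past 2-fold. The share of all genes without that filter was not computed, so these counts have no background.

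Between genotypes, CF was at least 2-fold below WT at day 2 for 9 of the 24 members (MCM4, MCM6, PCNA, FEN1, RRM2, GINS2, UHRF1, CLSPN and TK1), beside 3.47% of all genes. No member was 2-fold higher in CF at day 2, where 4.4% of all genes were. At day 5, 6 of the 24 were lower by that size, beside 3.89% of all genes, and at day 7 there were 5, beside 2.87%. None was higher by 2-fold at day 5 or 7, where 2.21% and 4.32% of all genes were. At day 9 no member was 2-fold lower or higher, beside 3.21% and 3.06% of all genes. MCM4, RRM2, GINS2, CLSPN and TK1 were on the list at each of the first 3 days. The WT day 2 library enters the comparison over the days and that between genotypes, so the 2 are not independent. TK1 also passed the filter only through that library.

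The median of the 24 log2 differences, CF minus WT, was -0.77, -0.57, -0.34 and 0.29 at day 2, 5, 7 and 9, beside -0.00, -0.05, 0.13 and 0.08 over all genes. All 40 members were lower in CF at day 2 beyond counting error, beside 42% of all genes lower and 42% higher. At day 5, 38 were lower, beside 46% of all genes, and only TIPIN was higher, beside 32.8%. At day 7, 27 were lower, beside 27.1%, while TIPIN and RPA2 were higher, beside 51.1%. At day 9 the members were no longer on one side, with 19 of 40 higher in CF beyond counting error and 6 lower (PCNA, CDCA7, GMNN, CCNE2, CDC6 and TK1). Of the 9427 genes with a mean of 5 CPM or more, 47.6% were higher and 29.9% lower at that day. The 40 members were counted without that filter here and at the earlier days, so such shares are not like for like. Among the 24 members above the filter, 5 stood below 0 at day 9, beside 3869 of the 9427 genes. The 19 members had been lower in CF at day 2, a course that 15.3% of the 9427 genes took. On totals 26 of the 40 members stood above 0 at day 9, beside 5558 of the 9427 genes. Under TMM and DESeq2 scaling 23 of the 40 did, and the share of all genes under these was not computed. Of the 13 members on the same side of 0 at all 4 days, all were lower in CF. The share of all genes on the same side at all 4 days was not computed. Among the 13, the 5 with the largest mean difference were TK1, CDCA7, E2F1, DSCC1 and TYMS, at a mean log2 of -1.18, -1.17, -0.97, -0.91 and -0.90.

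**Figure D3:**
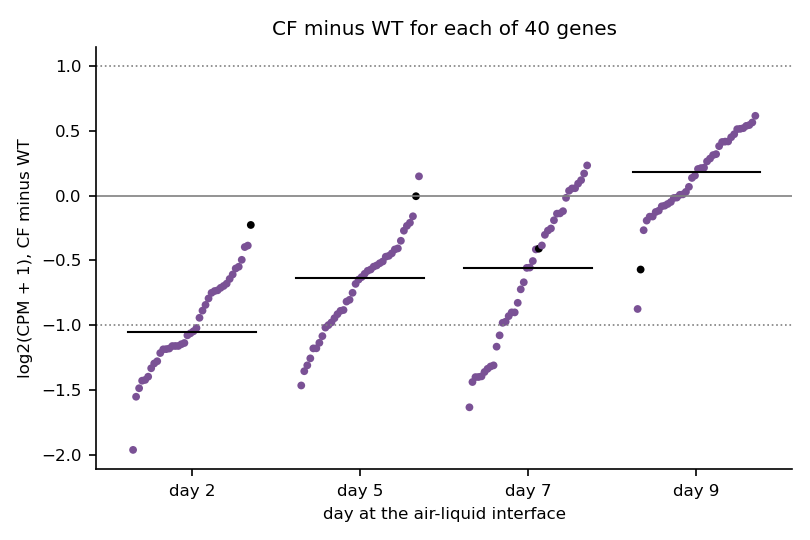
Each point is 1 of the 40 genes at 1 day, with CF minus WT on the log2(CPM + 1) scale on the vertical axis. Genes are sorted within a day, the black bar is the median, the black point is GMNN, and dotted lines mark 2-fold. The median goes from -1.06 at day 2 to 0.18 at day 9, and no gene passes 2-fold at day 9.

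Other replication genes, a further list of 50 that included the remaining MCM, polymerase and cyclin A genes, took the same course with smaller size. Their sum was 1476, 1044, 822 and 591 CPM in WT and 963, 806, 732 and 681 CPM in CF. Of the 32 with a mean of 5 CPM or more, 18 in WT and 6 in CF were at least 2-fold lower at day 9 than at day 2. Beside them 5.24% and 2.94% of all genes were. On log2(CPM + 1) the largest differences in WT were those of GINS1, CCNA2 and ASF1B, at -3.82, -3.62 and -3.61. In CF they were those of GINS1, CCNA2 and MCM3, at -2.48, -2.46 and -2.38. The 52 measured G2/M genes, which act in mitosis, had another course in the sum over the WT library. They summed to 2288 CPM at WT day 2 and 2414 CPM at day 5, while the replication genes were 1.60-fold lower at day 5 than at day 2. That higher sum rested on a minority of them, since 42 of the 52 stood lower at day 5 than at day 2, with a median log2 of -0.23. With a mean of 5 CPM or more, 30 of 38 stood lower, beside 3067 of 9427 genes. UBE2C went from 70.3 to 49.7 CPM, TOP2A from 48.4 to 45.4 CPM and MKI67 from 28.5 to 22.0 CPM. CENPF, a kinetochore protein, stood at 69.4 and 71.7 CPM at WT day 2 and 5 and then at 20.9 and 0.472 CPM. In CF the G2/M sum was 1536, 1379, 1251 and 1257 CPM, and CENPF stood at 34.1, 17.5, 2.97 and 1.20 CPM. Of the 38 G2/M genes above the filter, 27 in WT and 19 in CF were at least 2-fold lower at day 9, beside 5.24% and 2.94% of all genes. CENPF, UBE2C and TOP2A were furthest down in WT and CENPF, UBE2C and MKI67 in CF.

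To count cells, each cell was thinned to 3000 UMIs and its members' UMIs were added up. Cells with at least 10 of them made up 9.98% of WT cells at day 2 (613 of 6144, exact 95% interval 9.24 to 10.8%), 2.67% at day 5, 1.16% at day 7 and 0.0947% at day 9 (5 of 5280). In CF the shares were 2.02% (90 of 4460, 1.63 to 2.47%), 0.961%, 0.167% and 0.0442% (1 of 2265). These intervals cover the counting of cells only and say nothing of the spread between cultures. Cells under 3000 UMIs were left out: 80, 150, 73 and 136 in WT and 39, 45, 411 and 224 in CF. Without thinning, the share of all retained cells at the same rate of 10 per 3000 UMIs was 8.45, 2.25, 0.885 and 0.0554% in WT and 1.78, 0.764, 0.249 and 0% in CF. No class of these cultures should lack the genes, so no background share could be given. Among cells that the authors named centroacinar_progenitor, 0 of 4180 in WT and 0 of 1523 in CF reached 10, which with a limit of 3 cells allows up to 0.0718% and 0.197%. Median UMIs per cell of that class were 16524 and 25230. The cells of 10 or more were also deeper than the others, with median UMIs of 20071 against 15922 at WT day 2 and 21986 against 17786 at CF day 2. The limit of 10 cuts a continuous range: at WT day 2, 285 cells held 8 or 9 and 238 held 10 or 11.

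The cells below the limit differed over the days as well. Their mean was 2.54, 1.74, 1.43 and 1.30 member UMIs of 3000 in WT and 1.88, 1.49, 1.31 and 1.22 in CF. The mean of all thinned cells dropped by 2.30 from day 2 to day 9 in WT, of which the change from cells of 10 or more was -1.31 and from the other cells -0.990. In CF it dropped by 0.878, of which -0.254 came from cells of 10 or more and -0.624 from the others. At WT day 2 the cells of 10 or more held 36.6% of the members' UMIs, compared with 12.3% at CF day 2. GMNN was found in 45.7, 37.6, 39.3 and 39.6% of thinned WT cells by day and in 41.1, 40.6, 29.6 and 27.9% of CF cells. RRM2 was found in 18.5, 6.49, 2.72 and 0.947% of WT cells and in 8.81, 2.92, 1.84 and 1.37% of CF cells. For lack of a background share these are detection rates and not shares of expressing cells.

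The WT course was made of unlike parts. SOX2, a transcription factor of foregut epithelium, split the WT clusters cleanly, with 12 clusters at 4.87 CPM or less and 29 at 50.6 CPM or more, whereas no CF cluster passed 1.08 CPM. What separates the WT cells, a donor or a cell state, cannot be told apart here. In the SOX2-high WT cells the summed level was 1389 CPM at day 2 and then 489, 481 and 453 CPM. All 40 members were highest at day 2 in these cells, beside 29.7% of all genes, and RRM2 went from 119 to 4.16 CPM between day 2 and day 5. TK1 in these cells stood at 28.6, 0.128, 0.754 and 0.102 CPM by day and MCM4 at 42.5, 1.19, 2.17 and 0.729 CPM, so that they were near their lowest level already at day 5. PCNA, at 145, 86.8, 68.0 and 73.1 CPM, and GMNN, at 227, 196, 199 and 210 CPM, still held most of their day 2 level at day 5. Cells with 10 or more member UMIs were 11.0% of them at day 2 (576 of 5253) and 0 of 3378 at day 5, which by the same limit allows up to 0.0888%. In the SOX2-low WT cells the sum was 867, 1223, 816 and 411 CPM, and 38 of 40 members were highest at day 5, beside 27.6% of all genes. RRM2 in these stood at 64.6, 111, 45.4 and 5.38 CPM, TK1 at 14.4, 26.5, 10.4 and 0.387 CPM and PCNA at 73.8, 125, 88.0 and 40.2 CPM, whereas GMNN was between 168 and 187 CPM. The share with 10 or more was 4.15% at day 2 (37 of 891), 7.68% at day 5 (138 of 1798), 3.86% at day 7 and 0.0686% at day 9. All 138 such WT cells of day 5 were thus SOX2-low. The summed G2/M genes were highest on the same days as the members, with 1849, 3020, 1864 and 1192 CPM in SOX2-low and 2352, 1901, 1622 and 1449 CPM in SOX2-high cells. Since both subsets were lower at day 9 than at day 2 for all 40 members, the WT course over the whole library joined an early and a later one. SOX2-low cells made up 14.3, 33.8, 27.5 and 27.9% of the WT libraries by day.

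The CF to WT difference moved with that split. Against SOX2-low WT cells only, CF was lower by 0.22 on the log2 scale at day 2 in place of 0.83. None of the 24 members was at 2-fold in place of 9, beside 1.54% of all genes. MCM2 and MCM4 stood at 0.08 and 0.07, slightly higher in CF, but no counting interval is given for these 2 values. At day 5 and day 7 the difference was larger, at -1.1 and -0.86, with 17 and 10 members at least 2-fold lower in CF, beside 2.38% and 2.11% of all genes. At day 9 the difference was -0.02 on the log2 scale, and without GMNN CF was higher, at 274 against 243 CPM. Against SOX2-high WT cells only, a comparison chosen after seeing the data, it was -0.90 at day 2, with 9 members at least 2-fold lower beside 3.97% of all genes, but it turned at day 5, where CF was higher by 0.22 (571 against 489 CPM). There 12 of the 24 members were at least 2-fold higher in CF and none lower, beside 5.16% and 5.92% of all genes, among them RRM2, MCM4 and TK1, which were 2-fold lower in CF against the whole WT library. At day 7 and day 9 it was -0.10 and -0.15. No member was past 2-fold, beside 3.52% of all genes lower and 5.97% higher at day 7 and 4.32% and 5.82% at day 9, but without GMNN CF was the higher one at both days, with 303 against 281 CPM and 274 against 242 CPM. The lead of CF at day 7 without GMNN was small. Other scalings shift the day 7 difference of whole libraries by -0.15 (TMM) and -0.13 (DESeq2), and no value of this lead under them is given here. On totals, the direction of the CF to WT difference after day 2 thus depended on the WT cells it was set against and on GMNN.

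The deposited cell cycle phase ran against these levels. The authors' table called 24.5, 26.2, 35.3 and 43.9% of WT cells S by day (exact interval at day 9, 42.6 to 45.2%) and 26.3, 37.1, 33.7 and 34.8% of CF cells. G2M calls went from 9.61 to 26.1% in WT and from 13.8 to 35.3% in CF, and G1 calls from 65.9 to 30% and from 59.9 to 29.9%. Over the same days the share of cells with 10 or more member UMIs went from 9.98% to 0.0947% in WT. Cells called S held a mean of 7.89, 3.62, 2.32 and 1.78 member UMIs of 3000 in WT and 3.58, 2.20, 1.74 and 1.64 in CF. Cells called S at WT day 9 were therefore close to cells called G1 at WT day 2, which held 1.61. Without GMNN these 2 means were 0.929 and 1.00, against 7.13 in cells called S at WT day 2, so GMNN weighed far more in the late S calls. At WT day 2, 2.51% of cells called S had 0 or 1 member UMI, and at WT day 9 the figure was 48.8%. In CF it was 23.3% at day 2 and 52% at day 9.

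**Figure D4:**
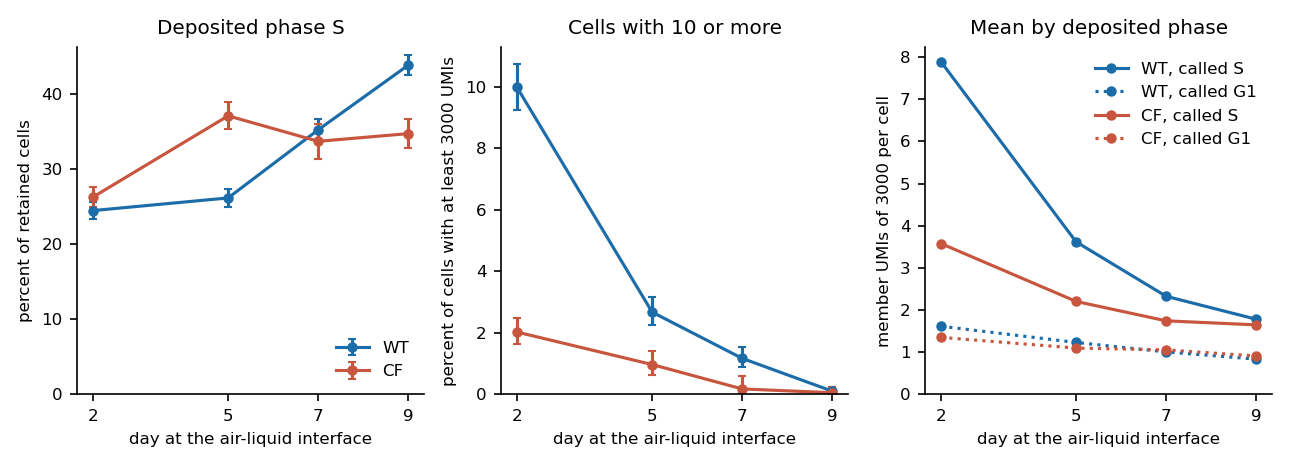
Left, percent of retained cells whose deposited phase is S against the day at ALI. Middle, percent of cells with 10 or more member UMIs of 3000, and right, mean member UMIs of 3000 in cells called S (solid) and G1 (dotted). WT is blue, CF is red, and bars in the left and middle panels are exact 95% intervals. The S calls go up from 24.5% to 43.9% in WT while the share of cells with 10 or more goes from 9.98% to 0.0947% and the mean in cells called S from 7.89 to 1.78.

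No cell called G1 reached 10 member UMIs in any library, and of those that did at WT day 2, 79.0% were called S and 21.0% G2M. At CF day 2 these shares were 72.2% and 27.8%. The phase of all 32945 cells followed from the 2 deposited scores, S where the S score was the larger, G2M where the G2M score was, and G1 where both were below 0. The mean S score of a library lay between -0.0182 and 0.00320 although the mean of member UMIs ranged from 1.22 to 3.6, so the score was near 0 on average in every library. Its SD was 0.147 at WT day 2 and 0.0373 at WT day 9. An S score of this kind is made from genes such as these. The phases of cells with 10 or more member UMIs thus carry no independent information, and neither does a correlation of the score with the members' UMIs. Over thinned cells that Pearson r was 0.874, 0.816, 0.759 and 0.465 in WT by day and 0.781, 0.722, 0.436 and 0.402 in CF. How the scores had been centred is not given in the sources used here, and its part in the calls was not tested. Phase calls at different days are accordingly not read as shares of cycling cells.

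By deposited class, the level was concentrated in a few clusters. The authors had clustered each genotype separately, into 41 WT and 30 CF clusters. A summed level of 1000 CPM or more was found in 7 WT clusters and 2 CF clusters, and the remaining clusters lay between 351 and 838 CPM in WT and between 336 and 656 CPM in CF. These 9 clusters held 798 of the 809 WT cells and 118 of the 119 CF cells with 10 or more member UMIs. Cells of the remaining clusters still differed over the days, with 572, 483, 456 and 434 CPM in WT and 538, 470, 441 and 405 CPM in CF. The 9 clusters took 32.8, 16.9, 5.63 and 0.388% of WT cells by day and 11.1, 3.38, 0.373 and 0.121% of CF cells. Clusters were built on the same cells, so their levels describe them and are no test.

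The highest was WT cluster 26 at 3812 CPM, in which every cell was called S. It is named acinar, and its 343 cells, 339 of them from WT day 2, were the whole class of that name. All 10 of its leading genes against the other WT clusters were members (E2F1, UNG, CLSPN, DTL, BARD1, CDCA7, DSCC1, UHRF1, MCM4 and TK1), at 10.1- to 11.9-fold. The 7 genes by which the study knows acinar cells were higher in it too, among them LDHA with 845 against 452 CPM and PRDX2 with 330 against 137 CPM. The other clusters pool all days, however. In the whole WT libraries these 7 genes summed to 1400.5 CPM at day 2 and to 760, 797 and 562 CPM at day 5, 7 and 9. Whether the cluster differs from other day 2 cells was not tested. Of 6 acinar genes listed as markers only CEL and PTF1A had rows, and CEL was at 0.0700 CPM or less in every library. WT cluster 31, named ductal and SOX2-low, followed at 3648 CPM, and WT cluster 25, named Prolif_acinar, at 3614 CPM. In CF the highest were cluster 24, named Prolif_acinar, at 2446 CPM and cluster 10, named ductal, at 2007 CPM. CF cluster 10 was led by members alone as well (MCM4, E2F1 and TK1 first), and 92.6% of its cells were called S.

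**Figure D5:**
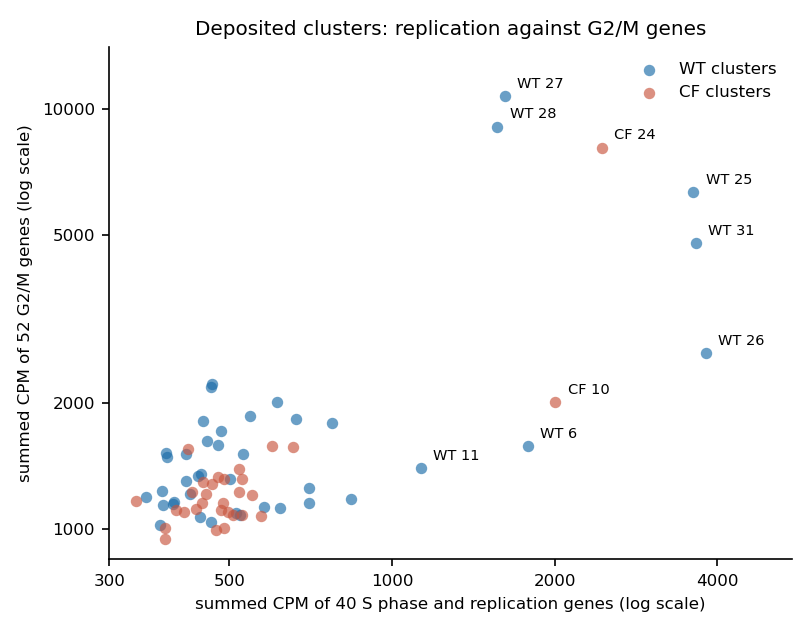
Each point is 1 deposited cluster, WT blue and CF red, with the summed CPM of the 40 genes on the horizontal and of 52 G2/M genes on the vertical log axis. Clusters WT 26, WT 6, WT 11 and CF 10 are high in replication genes with 2619 CPM of G2/M genes or less, WT 27, WT 28 and CF 24 are high in G2/M genes, WT 25 and WT 31 are high in both, and the 62 unlabelled clusters lie at 838 CPM or below.

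All 4 clusters with Prolif in their name were among these 9, together with 5 named ductal or acinar. WT cluster 25 (Prolif_acinar, 381 cells) was high in both kinds of genes, with 3614 CPM of the members, 6318 CPM of G2/M genes, 44.6% S calls and 227 cells of 10 or more. In the other 3 G2/M genes stood further out: WT cluster 27 (Prolif_ductal) held 10706 CPM of G2/M genes and 1618 CPM of the members, WT cluster 28 (Prolif_acinar) 9059 and 1567 CPM, and CF cluster 24 (Prolif_acinar) 8069 and 2446 CPM. WT clusters 26, 6 and 11 and CF cluster 10, all outside the Prolif classes, held 3812, 1786, 1131 and 2007 CPM of the members and between 1399 and 2619 CPM of G2/M genes. Of the 613 WT cells of day 2 with 10 or more member UMIs, 247 were named Prolif_acinar, 243 acinar, 122 ductal and 1 Prolif_ductal. Of the 138 at day 5, 116 were named ductal and 22 Prolif_ductal. In CF, 46 of the 90 at day 2 were named ductal and 44 Prolif_acinar. With all Prolif cells left out, the summed level was still 1078, 772, 569 and 438 CPM in WT and 667, 524, 444 and 406 CPM in CF.

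Within the ductal class, the only one with over 100 cells of 10 or more at both day 2 and day 5 in WT, the sum was 954, 928, 660 and 444 CPM in WT by day. For centroacinar_progenitor cells it was 436, 440, 417 and 412 CPM in WT and 515, 456, 468 and 432 CPM in CF, which differed little, though without GMNN it was 301, 208, 196 and 196 CPM in WT and 314, 263, 266 and 243 CPM in CF. Centroacinar cells, 78.6% of CF cells at day 9, stood at 407 CPM there. Different clusters made up these classes at different days: 682 of the 714 WT centroacinar_progenitor cells of day 2 were in cluster 13, which held 3, 8 and 0 cells of day 5, 7 and 9. Most ductal cells of WT day 2 were in clusters 4, 6, 9, 15 and 19, each with 8 cells or fewer of any later day. Courses within a class thus join different clusters. Classes of the 2 genotypes were named separately and are not compared with each other.

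Over the 71 clusters, most members varied together. The Pearson r between a member's log2(CPM + 1) and that of the summed other members without GMNN had a median of 0.874, and it was 0.8 or more for 30 of 40 genes. TK1, CDC45, TYMS, RRM2 and DSCC1 came highest, at 0.946 to 0.940. GMNN came last at 0.202, with a cluster range of 63.0 to 367 CPM, and its maximum lay in WT cluster 12, where no cell reached 10 member UMIs. POLA1, TIPIN, BRIP1 and ATAD2 followed at 0.596, 0.619, 0.636 and 0.692. Clusters share libraries, depth and a common cell cycle, so these values describe the clusters and carry no p. Among 7697 genes outside the list with a mean of 10 CPM or more, those most like the summed members over clusters included PCLAF at 0.916, SMC2 at 0.910, DUT at 0.896 and DNMT1 at 0.893, and further CBX5, MYBL2, MCM3, TPX2 and RFC3.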

How the data were processed

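The submitters' processing notes name Cell Ranger 5.0.1, R 4.1.2 and Seurat. The authors aligned reads to the ferret assembly ASM1176430v1.1 and deposited UMI counts per gene and barcode. Barcodes below 200 genes or above 20% mitochondrial UMIs had been dropped by them, and DoubletFinder had taken out doublets. That step was not repeated here, and the 32945 cells they retained of 44243 barcodes were used. Their deposited cell table gives the percent of mitochondrial UMIs, an S score and a G2M score, a phase, a cluster and a class name per cell. The deposited normalized values and lineage scores were not used.

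UMIs of retained cells were summed per library, phase, class and cluster and scaled to CPM, with a pseudocount of 1 CPM on the log2 scale. Scaling alternatives were TMM (edgeR 4.0.16) and size factors (DESeq2 1.42.0), and neither tool was used for a test. Poisson, Clopper-Pearson and conditional binomial intervals (95%) came from scipy 1.17.1. Cells were thinned without replacement to 3000 UMIs (numpy 2.4.6, seed 1). The steps were tested on simulated data. Depth ranged from 34735952 to 114585136 UMIs per library. Libraries were grouped by the genotype and day of their titles.

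The members and all gene lists were chosen with earlier results of these data known. Values in every library are given for the 10 members with the most UMIs, the 5 with the largest mean CF to WT difference of 1 direction at all 4 days, and the 5 largest and 5 smallest day 2 to day 9 changes in each genotype. For the other lists the 3 largest changes are named. Leading genes of clusters needed 10 CPM. Of the genes most like the members, 1 is not reported here. All 40 measured members matched a protein-coding entry of the RefSeq table for ASM1176430v1.1, whose sequences and chromosomes are not used here.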

Additional observations from a re-analysis of the deposited data

Results flagged for a closer look

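The CF to WT difference of 19 members ran in opposite directions at day 2 and day 9, beyond counting error at both days. The difference between days was not tested, since there was 1 library per genotype and day. All 19 were lower in CF at day 2. Of the 9427 genes with a mean of 5 CPM or more, 15.3% took the same turn, and 47.6% were higher in CF at day 9 beyond counting error. The 19 were picked from all 40 members without that filter. At day 9 CF was higher by 0.62 on the log2(CPM + 1) scale for WDR76, 0.57 for RPA2, 0.55 for HELLS, 0.54 for MCM6, 0.52 for PRIM1, 0.52 for BLM and 0.51 for TIPIN. The value was 0.47 for FEN1, 0.45 for BARD1, 0.42 for BRIP1, 0.42 for DCK, 0.41 for USP1 and 0.38 for GINS2. It was 0.32 for UHRF1, 0.31 for MCM4, 0.29 for CHAF1B, 0.26 for RFC2, 0.22 for MCM5 and 0.21 for RRM2. The direction at day 9 was the same under TMM and DESeq2 scaling for all 19. These scalings shift the day 9 difference by only -0.086 and -0.073, less in size than the smallest of the 19, so no direction could turn. The direction was also the same for all 19 against SOX2-high WT cells alone. Those cells were 72.1% of the WT day 9 library by which the 19 were picked, so neither check is independent. Against SOX2-low WT cells alone only 13 of the 19 stood higher in CF, 6 of them beyond counting error (FEN1, PRIM1, RFC2, RPA2, TIPIN and USP1). The 6 that did not were MCM5, MCM6, RRM2, UHRF1, HELLS and DCK, of which MCM5 and DCK were lower in CF beyond counting error. MCM4 was at 1.40 CPM in CF and 1.39 CPM in these WT cells. For neither WT subset was the share of all genes by direction or counting error computed, so these counts have no background.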

How the results depend on the processing

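Each value is a difference on the log2 scale in the order CF minus WT at day 2, 5, 7 and 9, then day 9 minus day 2 in WT and in CF. As reported the summed level gave -0.83, -0.53, -0.41, -0.11, -1.59 and -0.87. TMM gave -0.88, -0.49, -0.55, -0.20, -1.70 and -1.02, and DESeq2 size factors -0.85, -0.48, -0.54, -0.19, -1.68 and -1.01. Without the proliferating classes it was -0.69, -0.56, -0.36, -0.11, -1.30 and -0.71. Weighting cells equally gave -0.78, -0.32, -0.11, -0.0749, -1.44 and -0.74. With all deposited barcodes it was -0.82, -0.50, -0.37, -0.09, -1.62 and -0.89. Against SOX2-low WT cells it was -0.22, -1.10, -0.86 and -0.0153, which without GMNN was positive at day 9, at 274 against 243 CPM, and against SOX2-high WT cells, chosen after seeing the data, -0.902, 0.223, -0.0976 and -0.154, so the sign at day 5 turned, and without GMNN it was also positive at day 7 and 9, at 303 against 281 CPM and 274 against 242 CPM. No value under TMM or DESeq2 is given for that day 7 difference against SOX2-high WT cells without GMNN. These scalings shift the day 7 difference of whole libraries by -0.15 and -0.13. Without GMNN the summed level of whole libraries gave -0.99, -0.73, -0.41, 0.18, -2.18 and -1.01, so the sign at day 9 turned. The median over members turned there too, with -0.77, -0.57, -0.34, 0.29, -2.20 and -0.995. Without GMNN and with TMM, an alternative chosen after seeing the data, it was -1.04, -0.69, -0.55, 0.0899, -2.29 and -1.17, and with DESeq2 size factors -1.01, -0.68, -0.54, 0.10, -2.27 and -1.16. The restriction to cells of at least 3000 UMIs left all 6 values inside their counting intervals.

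Counts of members at least 2-fold lower were 9, 6, 5, 0, 21 and 12. A pseudocount of 5 CPM gave 5, 1 and 1 at day 2, 5 and 7, without a filter there were 22, 10, 11, 0, 35 and 25, and against SOX2-low WT cells 0, 17 and 10. The share of all genes with a pseudocount of 5 CPM or without a filter was not computed, so those counts have no background. Against SOX2-high WT cells there were 9, 0, 0 and 0 lower by day, and 0, 12, 0 and 0 higher, where 3.97, 5.92, 3.52 and 4.32% of all genes were lower and, at day 5, 7 and 9, 5.16, 5.97 and 5.82% higher. Against SOX2-low WT cells 1.54, 2.38 and 2.11% of all genes were lower at day 2, 5 and 7. TMM, DESeq2 size factors, the 3000 UMI limit, all barcodes and the omission of proliferating classes kept these counts within 1.5 times.

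The share of cells with 10 or more member UMIs of 3000 moved with its limit, here for WT and then CF by day. At 5 or more it was 26.3, 9.39, 4.67, 2.03, 9.96, 4.03, 1.67 and 1.15%. At 20 or more it was 0.342, 0.251, 0.0877, 0, 0.0897, 0.0739, 0 and 0%. Thinned to 5000 UMIs it was 20.4, 6.02, 2.34, 0.213, 5.51, 1.86, 0.52 and 0%. With no thinning it was 57.1, 39.8, 31.7, 22.9, 53.5, 57.8, 46.9 and 36.8%, so that CF was above WT from day 5 on, where CF cells are deeper. Of 645 alternatives for the 22 members named with values, 13 reversed a 2-fold difference. Against SOX2-low WT cells these were MCM2 and MCM4 at day 2, at 0.0811 and 0.0654. Those against SOX2-high WT cells were run for 2-fold differences only. At day 5 they were RRM2, MCM4, TK1, CDCA7, E2F1, CLSPN and GINS2, at 2.03, 1.99, 2.08, 1.18, 0.688, 1.66 and 1.77. At day 7 they were RRM2, TYMS, CLSPN and GINS2, at 0.155, 0.136, 0.0268 and 0.0994. No counting interval is given for the reversed values. CLSPN and GINS2 at day 7 were smaller in size than the scaling shifts of -0.15 and -0.13 at that day.

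No test was run, paired by day or otherwise, since each genotype and day had 1 library and days are not replicates. One library per group, pooled donors and shared origins of cells limit every comparison, and depth limits genes under 1 CPM and the CF day 7 library, where 411 of 1607 cells were left out of the thinned shares.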
